A study of Mus musculus with 12 samples.

Results

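The NF-kB transcription factors and the inhibitors that they switch on themselves were examined as 10 genes: the subunit genes Nfkb1, Nfkb2, Rela, Relb and Rel, the IkB-family genes Nfkbia, Nfkbiz, Nfkbie and Nfkbid, and Tnfaip3, which encodes the enzyme A20. The genes were chosen by name and role, with earlier results of these data known. Every window that the deposited table assigned to one of them and that lay within 100 kb of the transcription start site (TSS) was taken, which gave 119 of the 67822 windows, for 10 of the 15879 genes with such a window. Each window was 1000 bp wide, and the number of windows per gene ran between 3 (Relb) and 22 (Nfkb1 and Tnfaip3).

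The windows were measured by chromatin immunoprecipitation of histone H3 acetylated on lysine 27 (H3K27ac), a mark of active promoters and enhancers, in microglia, the resident macrophages of the brain. The cells came from mouse forebrain and had been picked with magnetic beads for CD11b, a surface integrin that other myeloid cells also carry. Knockout (KO) mice, named Nlrp3-/- and described as a Cias1 knockout originating with Millennium Pharmaceuticals, lacked the inflammasome sensor NLRP3. Wild-type (WT) mice had the C57BL/6N background, and the background of the knockout was not given. Each genotype had 3 H3K27ac and 3 input libraries. Neither treatment, age nor sex was labelled, and the labels did not say whether replicates came from separate animals. The p-values therefore measure the spread between these libraries. That spread may be technical, except where WT replicate 1 is concerned, as described below. The labels set the knockout against the wild type, and the question asked here is whether that comparison reached the NF-kB genes.

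NF-kB proteins act as dimers that wait in the cytoplasm, held by IkB proteins, until a kinase complex marks the IkB for destruction. The freed dimers enter the nucleus, bind kB sites in DNA, and among their first targets are genes for IkB proteins and for A20, which close the loop by shutting the signal off. In microglia and other macrophages the pathway is best known for driving cytokine genes, and the gene that encodes NLRP3 is itself a known target.

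The 6 H3K27ac libraries held 3726550 to 5028129 tags and the 6 input libraries 3287009 to 6961590 tags. In the H3K27ac libraries 39.1% (KO replicate 3) to 46.1% (KO replicate 1) of tags lay in windows. The targeted gene was checked first. In the window beside an Nlrp3 TSS at chromosome 11, 59542134 to 59543134 (mm10), the KO libraries held 1, 0 and 16 H3K27ac tags and the WT libraries 180, 180 and 195. Another promoter window of Nlrp3, at 59541020 to 59542020, held 17, 20 and 43 tags in KO and 138, 91 and 119 in WT. KO replicate 3 had the most tags of the KO libraries in both windows. Promoters of 3 genes on the Y chromosome (Eif2s3y, Uty, Ddx3y) held 183 to 239 H3K27ac tags in the KO libraries. They held 230 and 199 in WT replicates 2 and 3, and 0 in WT replicate 1. In input they held 6, 2 and 7 tags in KO, 13 and 10 in WT replicates 2 and 3, and 0 in WT replicate 1. WT replicate 1 was therefore not a repeat of the same material as WT replicates 2 and 3. The genotype comparison is also given without that library. Promoter windows of 15 microglia marker genes had a median of 15.04 times the input in KO and 13.2 times in WT. For 7 marker lists of other cell types this median ran between 0.992 (monocytes and neutrophils) and 5.14 times (lymphocytes) in KO, and between 0.915 (astrocytes) and 3.11 times (border macrophages) in WT. Those lists had promoter windows for 1 to 5 of their 10 to 13 genes, and their summed promoter levels stayed under 29 counts per 1000000 total tags (CPM) in every library, against 450 to 572 in KO and 485 to 560 in WT for the microglia list. These sums ran over 25 promoter windows for the microglia list and 1 to 7 for the others, so they are not levels per window. Promoter windows of 23 immediate early genes that cell dissociation can induce had a median of 15.5 times the input in KO and 12.5 times in WT. Whether cell isolation altered the mark at the NF-kB genes was not tested.

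The promoter letters are shown because the genes were grouped as parts of a feedback loop, and the kB consensus is the letter pattern by which that loop is usually recognised. RefSeq promoter entries (250 bases before to 50 after a start, GRCm38.p6, the same assembly as mm10) were found for 7 of the 10 genes, with 12 entries in all. The kB consensus matched on at least 1 strand in 8 of the 12 entries and in 6 of the 7 genes (Rel, Nfkb2, Nfkbia, Nfkbid, Nfkbie and Tnfaip3), against 1480 of 32851 promoters in the whole table (4.51%). The Nfkb2 entries at chromosome 19, 46305445 to 46305744 and 46305680 to 46305979, overlap and share a match, which counts in each. The 300-base promoter entry of Rela held no match. The capitals below mark the matches, and every sequence is given 5′ to 3′ on the strand of its gene.
Rel, chr11:23770920-23771219, minus strand: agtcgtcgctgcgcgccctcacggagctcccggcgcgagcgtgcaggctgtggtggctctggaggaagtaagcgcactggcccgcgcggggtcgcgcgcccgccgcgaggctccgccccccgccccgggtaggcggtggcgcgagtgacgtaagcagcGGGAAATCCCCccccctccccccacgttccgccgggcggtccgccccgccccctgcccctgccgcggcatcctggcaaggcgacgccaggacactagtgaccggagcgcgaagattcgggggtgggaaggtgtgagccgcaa
Nfkb2, chr19:46304487-46304786, plus strand: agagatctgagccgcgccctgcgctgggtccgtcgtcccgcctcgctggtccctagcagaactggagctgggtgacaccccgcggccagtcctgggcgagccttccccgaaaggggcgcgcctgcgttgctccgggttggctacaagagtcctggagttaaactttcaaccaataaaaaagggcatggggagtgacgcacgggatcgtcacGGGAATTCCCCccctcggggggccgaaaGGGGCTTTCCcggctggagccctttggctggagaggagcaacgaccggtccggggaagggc
Nfkbia, chr12:55492598-55492897, minus strand: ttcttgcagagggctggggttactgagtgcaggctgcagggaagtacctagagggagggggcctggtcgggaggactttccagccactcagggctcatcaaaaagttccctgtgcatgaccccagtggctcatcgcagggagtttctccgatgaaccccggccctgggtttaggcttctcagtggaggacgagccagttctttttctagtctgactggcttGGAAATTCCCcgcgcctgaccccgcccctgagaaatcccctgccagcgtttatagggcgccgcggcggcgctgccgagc
Tnfaip3, chr10:19015361-19015660, minus strand: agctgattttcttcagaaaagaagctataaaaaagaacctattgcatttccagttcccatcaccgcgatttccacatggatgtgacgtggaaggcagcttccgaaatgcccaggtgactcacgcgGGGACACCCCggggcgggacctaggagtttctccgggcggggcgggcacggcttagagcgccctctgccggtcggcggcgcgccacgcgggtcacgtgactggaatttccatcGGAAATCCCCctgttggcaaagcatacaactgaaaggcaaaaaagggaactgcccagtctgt
Nfkbid, chr7:30422156-30422259, plus strand: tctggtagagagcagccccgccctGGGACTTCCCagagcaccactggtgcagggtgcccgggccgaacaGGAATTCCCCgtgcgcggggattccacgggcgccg
Nfkbie, chr17:45555569-45555628, plus strand: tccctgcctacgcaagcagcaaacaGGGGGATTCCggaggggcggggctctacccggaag

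The first base of a match lay at −92 from the start in Rel, at −39 and −11 in the Nfkb2 entry shown, and at −29 in Nfkbia. It lay at −125 and −12 in Tnfaip3, at −226 and −181 in the Nfkbid entry shown and at −106 in Nfkbie. The Nfkb2 entries not shown had matches at −236 and 10 and at −225 from their own starts. Matches found on both strands overlapped, as in Nfkb2 and Rel, and were printed as 1 run. The promoter entries shown for Rel, Nfkb2, Nfkbia and Tnfaip3 each lay whole inside a measured window. An AP-1 motif, TGANTCA, matched 3 of the 12 entries, in Nfkb2, Nfkbie and Tnfaip3, against 7.81% of all promoters. The PU.1 motif GAGGAAGT, named for a factor that macrophages depend on, matched 2, in Nfkbid and Rel, against 3.2% of all promoters. The interferon-stimulated response element matched 0 of the 12 against 3.44%. A match is a run of letters and was not tested for binding.

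All 10 genes carried H3K27ac far above input in both genotypes, and none of them differed between KO and WT past the test. Summed over their windows, the largest estimates were those of Rel, 1.15-fold in KO over WT with a 95% interval of 0.992 to 1.32, and Relb, 0.880-fold with an interval of 0.659 to 1.17. Each sum was fitted with edgeR's quasi-likelihood test over 12148 genes with Benjamini-Hochberg adjustment, and a gene counts as called at an adjusted p under 0.05. By that rule 0 of the 10 members were called, against 25 genes overall (0.206%). At an unadjusted p under 0.05 there were also 0 members, against 701 genes overall (5.77%), and DESeq2 called 0 members and had 0 at that unadjusted p. Adjusted p-values of the members ran between 0.892 and 0.997, the bounds of their 95% intervals between −0.60 and 0.40 on the log2 scale, and their standard errors between 0.09 and 0.21, where the median standard error over all genes was 0.34. In bulk chromatin, fewer cells with the mark and less of it per cell cannot be told apart. Sums run over different numbers of windows and are not compared between genes. The median log2 fold change was −0.07 over the members, 4 of them positive and 6 negative, and 0.0013 over all genes tested. Without WT replicate 1 the values of the members ran between −0.17 (Relb) and 0.26 (Tnfaip3), each with the sign it had with all libraries, 0 were called, and 1, Tnfaip3, had an unadjusted p under 0.05. The share of all genes at that unadjusted p without WT replicate 1 is not given, so this count cannot be set against it.

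**Figure D1:**
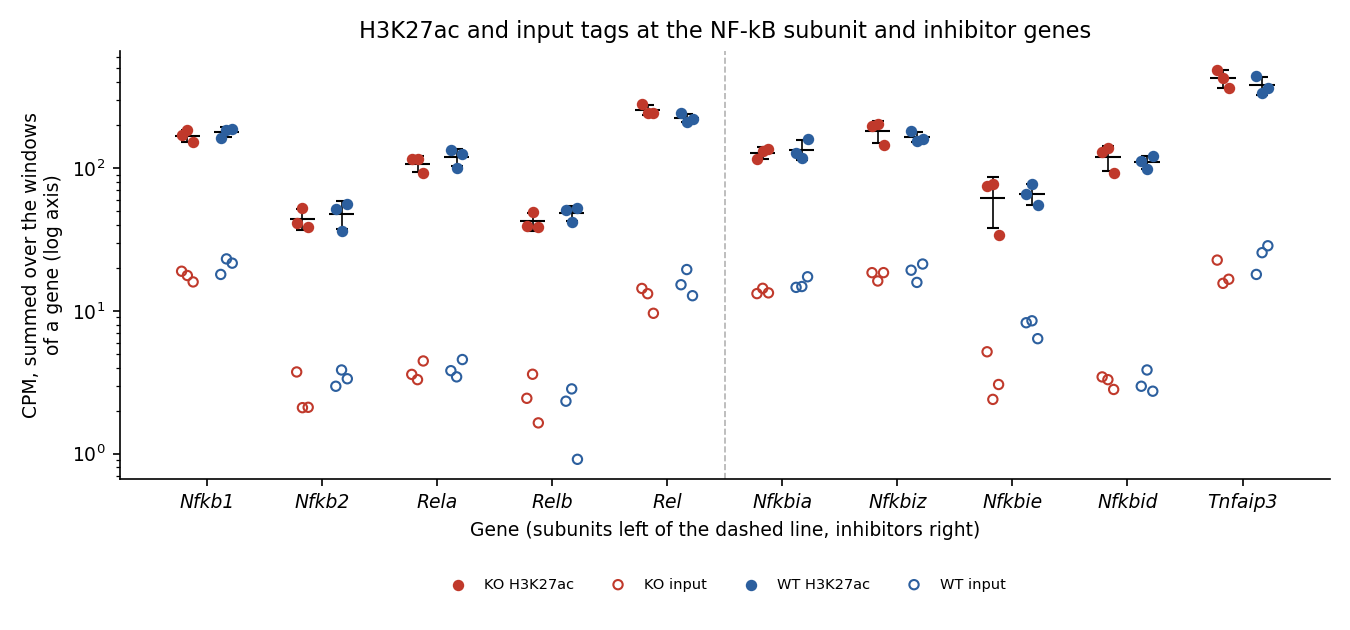
CPM (log axis), summed over the windows of each gene, in each H3K27ac library (filled points) and input library (open points), with KO in red left of WT in blue and bars for mean and SD of the 3 H3K27ac libraries. In every gene the H3K27ac points stand above all the input points, and in 9 of the 10 genes the KO and WT points overlap.

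Among the subunits, Nfkb1 encodes the precursor p105 that is cut to p50, the DNA-binding partner of most NF-kB dimers. Its 22 windows together held 771, 933 and 749 tags in the KO libraries and 603, 832 and 797 in the WT libraries. Scaled to the total tags of each library, these were 169 ± 16.8 CPM in KO and 178 ± 14.5 in WT (SD, n = 3 each), and the ranges overlapped. The log2 fold change was −0.08 (SE 0.12, edgeR adjusted p = 0.986).

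Nfkb2 encodes p100, which is cut to p52 in the slower, non-canonical branch of the pathway. It had 187, 265 and 192 tags in KO and 194, 163 and 237 in WT, with overlapping ranges and a log2 fold change of −0.11 (SE 0.21, adjusted p = 0.990). Relb, whose product pairs with p52 in that branch, had 177, 249 and 191 tags in KO and 191, 189 and 222 in WT, which also overlapped once scaled (log2 −0.19, SE 0.20, adjusted p = 0.974). Both genes had nearly all of their tags at the promoter: windows within 1 kb of a TSS held 98.8% of Nfkb2 tags in KO and 97.8% in WT, and 96.8% of Relb tags in KO and 98.8% in WT. The lncRNA gene 4833438C02Rik overlaps both promoter windows of Nfkb2, so the tags there cannot be given to one gene or the other.

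Rela encodes p65, the main transactivating subunit of the canonical branch. Its 5 windows held 523, 580 and 452 tags in KO and 496, 452 and 533 in WT. They averaged 108 ± 13.7 CPM in KO and 120 ± 17.1 in WT, and the ranges overlapped (log2 −0.15, SE 0.14, adjusted p = 0.962). All 4 of its tested windows had negative log2 fold changes, between −0.32 and −0.11, and none was called.

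Rel encodes c-Rel, a subunit used mostly in blood and immune cells. Its 12 windows held 1275, 1230 and 1205 tags in KO and 906, 952 and 934 in WT. Scaled, they averaged 257 ± 21.2 CPM in KO and 225 ± 16.1 in WT, and every KO library lay above every WT library. Rel was the only member with groups that did not overlap, whereas 581 of 12148 genes lay above in all KO libraries (4.78%) and 589 below (4.85%). The log2 fold change was 0.20 (SE 0.10, unadjusted p = 0.064, edgeR adjusted p = 0.892). Without WT replicate 1 it was 0.23 (adjusted p = 0.815).

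The window at the Rel promoter, at chromosome 11, 23770632 to 23771632, had the smallest unadjusted p of all member windows. It held 197, 211 and 205 tags in KO and 112, 136 and 141 in WT, so each KO library had more tags than any WT library. The level was 42.3 ± 0.99 CPM in KO and 31.2 ± 1.82 in WT (SD, n = 3 each), a log2 fold change of 0.45 (SE 0.20, 95% interval 0.03 to 0.86, unadjusted p = 0.035). After adjustment over 40370 windows the edgeR p was 0.998, so the difference was not called. Without WT replicate 1 the log2 fold change was 0.40 (unadjusted p = 0.090, edgeR adjusted p = 0.989). Input held 6, 2 and 1 tags there in KO and 2, 4 and 2 in WT. The window overlapping it, annotated as intronic and the strongest of the gene, held 325, 301 and 270 tags in KO and 197, 200 and 244 in WT (log2 0.27, SE 0.18, adjusted p = 0.998). Rel and Nlrp3 both lie on chromosome 11, 35.8 Mb apart.

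Rel also had a distal cluster of 3 intergenic windows at −50.2, −50.9 and −52.5 kb from the TSS. These held 31.9% of the tags of the gene in KO and 31.4% in WT. The nearest of them, at chromosome 11, 23820622 to 23821622, had 140, 122 and 177 tags in KO and 109, 116 and 88 in WT. The log2 fold changes of the 3 windows were 0.29, 0.12 and 0.27 with increasing distance, and none was called. Such distal windows were assigned to Rel by the nearest TSS, which does not show that they act on it.

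Nfkb1 had an extended block of windows deep in its gene body. It comprised 12 windows 61.5 to 88.6 kb downstream of the TSS, all inside the annotated gene. Of these 11 were tested, and 10 were called over input in KO and 11 in WT. The 12 windows held 63.6% of its tags in KO and 66.1% in WT. The strongest of them, at 83.3 kb and overlapping the lncRNA gene Gm46827, averaged 25.9 CPM in KO and 29.9 in WT, with ranges that overlapped those of the promoter window at 30.1 ± 7.33 in KO and 31.03 ± 8.37 in WT. A window of the block, at 61.5 kb, had more scaled tags in all KO libraries (26, 48 and 30 tags) than in any WT library (7, 24 and 17 tags), with a log2 fold change of 0.90 and an unadjusted p of 0.104. The neighbouring windows at 62.6 and 63.4 kb had log2 fold changes of −0.05 and −0.09.

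**Figure D2:**
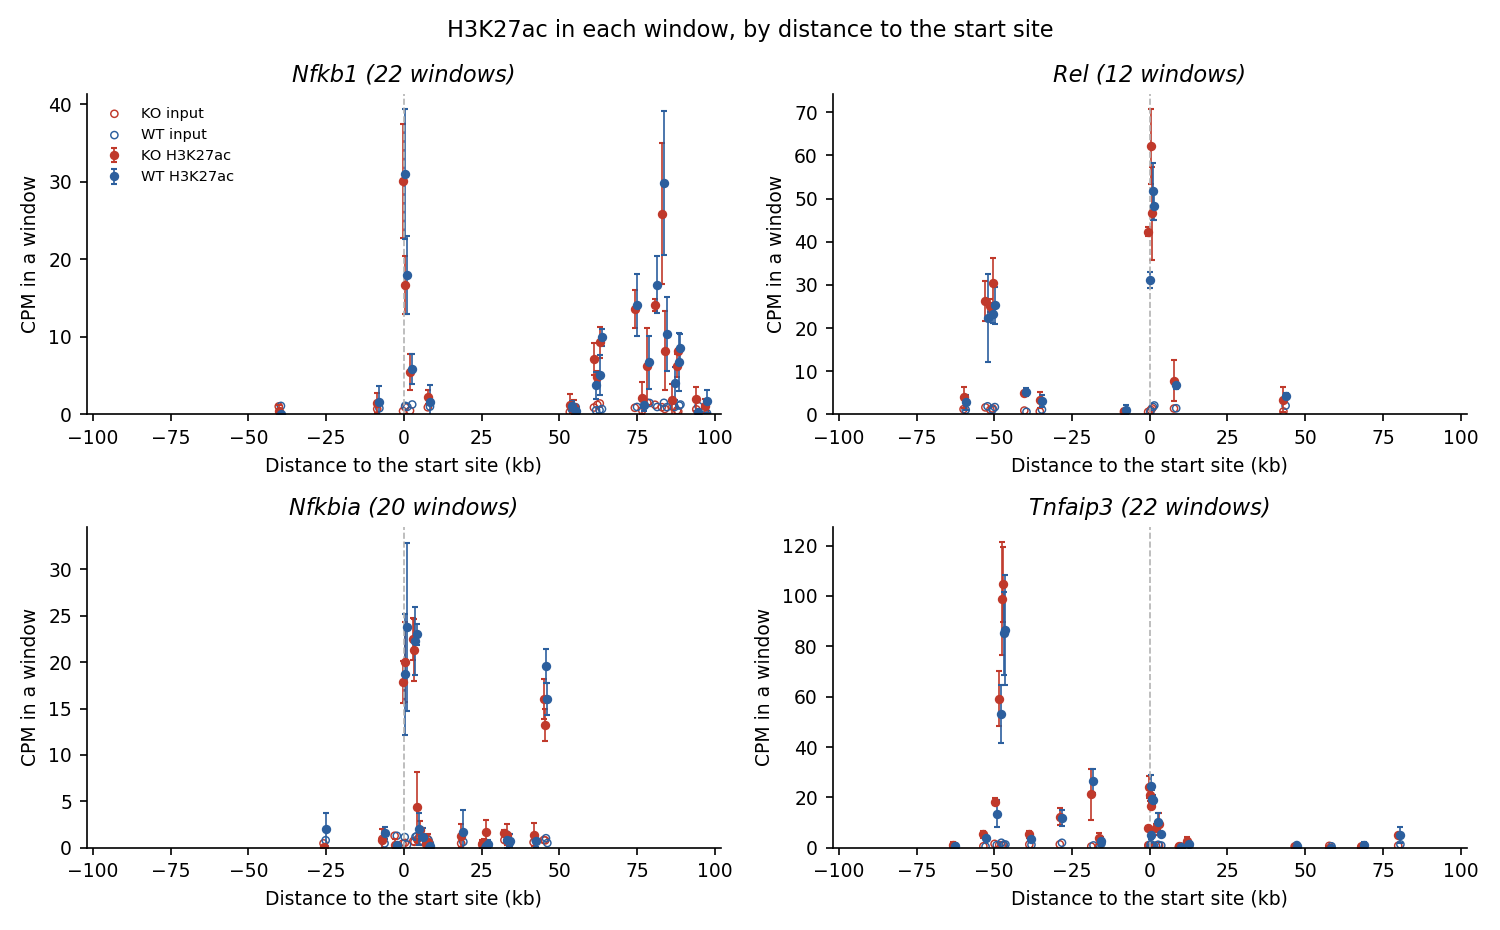
Mean H3K27ac CPM in each window (points with SD bars, n = 3) against distance to the TSS in kb, for Nfkb1, Rel, Nfkbia and Tnfaip3, with KO in red drawn just left of WT in blue and input as open points. The tallest points of Tnfaip3 stand upstream of its promoter at −46.7 kb (105 CPM in KO, 86.6 in WT), and the distal windows of Rel at −50.2 to −52.5 kb stand below the mean of its promoter window in both genotypes.

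The inhibitor genes encode proteins with ankyrin repeats. Nfkbia encodes IkB alpha, the fast inhibitor that NF-kB itself induces and that carries dimers back out of the nucleus. Its 20 windows held 521, 663 and 676 tags in KO and 479, 530 and 672 in WT. They averaged 128 ± 11.6 CPM in KO and 135 ± 21.2 in WT, with overlapping ranges (log2 −0.06, SE 0.14, adjusted p = 0.997). Of these windows 13 were too low to be tested.

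Nfkbia was marked at 3 places. The promoter window, whose kB match is shown above, had 86, 77 and 95 tags in KO and 69, 55 and 107 in WT. The window at the transcript end, 3.4 kb downstream of the TSS, had the highest mean over all 6 libraries, with 90, 121 and 116 tags in KO and 73, 93 and 112 in WT. In KO it stood highest at 22.5 CPM, while in WT, at 22.2 CPM, it stood below the windows at 671 bp, with 23.8, and at 3748 bp. A pair of overlapping intergenic windows 45.4 and 45.8 kb downstream had log2 fold changes of −0.28 and −0.26, uncalled, and the first of them had 66, 93 and 74 tags in KO and 79, 79 and 84 in WT.

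Nfkbie encodes IkB epsilon, a slower inhibitor that NF-kB also induces. Its 7 windows held 338, 388 and 168 tags in KO and 246, 348 and 234 in WT. KO replicate 3 was the lowest library, at 34.1 CPM against 74.6 and 77.2 in the other KO replicates and 66.0, 77.5 and 55.3 in WT. The log2 fold change was −0.13 (SE 0.21, adjusted p = 0.988), and without KO replicate 3 it was 0.11 (adjusted p = 0.999). Its promoter window was the weakest among the 10 genes, and its strongest window lay 1.2 kb downstream, in an intron, with 80, 111 and 61 tags in KO and 78, 104 and 57 in WT.

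Nfkbiz and Nfkbid encode nuclear IkB proteins, which act on bound NF-kB and can raise or lower the output of individual target genes. Nfkbiz had 895, 1026 and 714 tags in KO and 674, 698 and 674 in WT (log2 0.14, SE 0.12, adjusted p = 0.961). It had marked windows at more than 1 annotated start: the window at −32 bp from a TSS held 102, 104 and 91 tags in KO and 79, 88 and 77 in WT, and another promoter window, at chromosome 16, 55838241 to 55839241, held 179, 227 and 109 in KO and 157, 113 and 74 in WT. Neither was called, and the scaled ranges of the genotypes overlapped in both.

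Nfkbid had 588, 692 and 457 tags in KO and 416, 444 and 511 in WT, with overlapping ranges (log2 0.12, SE 0.14, adjusted p = 0.976). Its promoter windows held 98.9% of its tags in KO and 98.2% in WT. The window at −176 bp from a TSS had the highest mean over all 6 libraries, with 219, 274 and 187 tags in KO and 140, 150 and 187 in WT (log2 0.29, SE 0.20). The window at −113 bp, which overlaps its end, held 219, 177 and 162 tags in KO and 155, 179 and 185 in WT (log2 −0.11, SE 0.20). In KO the first averaged 46.9 CPM and the second 38.8, while in WT the first averaged 38.4 and the second 41.7. These overlapping windows had estimates of opposite sign, and both 95% intervals included 0 (−0.11 to 0.69 and −0.52 to 0.30).

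The other member window with an unadjusted p under 0.05 lay in the last exon of Nfkbiz, annotated as 3′ UTR, at chromosome 16, 55811467 to 55812467. It held 17, 46 and 54 tags in KO and 29, 3 and 7 in WT, so WT replicate 1 lay above KO replicate 1. The log2 fold change was 1.33 (SE 0.64, unadjusted p = 0.048, edgeR adjusted p = 0.998). It rested on single libraries: without WT replicate 1 it was 2.79 (adjusted p = 0.500), without WT replicate 2 it was 0.85 (adjusted p = 0.996), and over all 6 ways of leaving out 1 library it ran between 0.85 and 2.79, uncalled in each. Input held 17, 6 and 2 tags there in KO and 4, 6 and 2 in WT, so KO replicate 1 had as many input as H3K27ac tags.

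Tnfaip3 encodes A20, a ubiquitin-editing enzyme that takes signalling chains apart upstream of the kinase complex. Its 22 windows held 2190, 2163 and 1798 tags in KO and 1648, 1515 and 1536 in WT. They averaged 426 ± 59.3 CPM in KO and 381 ± 54.8 in WT, and the ranges overlapped (log2 0.16, SE 0.09, unadjusted p = 0.077, adjusted p = 0.901). Without WT replicate 1 the log2 fold change was 0.26 (unadjusted p = 0.0093, edgeR adjusted p = 0.602). The promoter window had 108, 101 and 141 tags in KO and 88, 94 and 124 in WT, with a log2 fold change of 0.00 (SE 0.25).

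Most of the Tnfaip3 signal stood far upstream. Together 4 windows at −46.7 to −49.5 kb, over chromosome 10, 19061658 to 19065455, held 65.9% of the tags of the gene in KO and 62.3% in WT. The strongest, at 19061658 to 19062658, had 517, 565 and 430 tags in KO and 416, 322 and 324 in WT. By mean level it ranked 12 in KO and 15 in WT among all 67822 windows. Its log2 fold change was 0.28 (SE 0.16, adjusted p = 0.998), and without WT replicate 1 it was 0.47 (adjusted p = 0.866). The 4 windows overlap in part and share tags, and 3 of them overlap the lncRNA gene Gm51814.

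Because all windows are equally wide, promoter levels could be ordered between genes, as H3K27ac CPM in the window nearest the TSS. In KO the order ran Rel (42.3 ± 0.99), Rela (41.6 ± 6.10), Nfkbid (38.8 ± 8.33), Nfkb2 (33.1 ± 8.76), Nfkb1 (30.1 ± 7.33), Relb (24.3 ± 3.72), Tnfaip3 (24.2 ± 4.28), Nfkbiz (20.6 ± 2.02), Nfkbia (17.9 ± 2.21) and Nfkbie (9.05 ± 4.04). In WT it ran Rela (45.0 ± 6.13), Nfkbid (41.7 ± 1.93), Nfkb2 (36.6 ± 7.13), Rel (31.2 ± 1.82), Nfkb1 (31.03 ± 8.37), Relb (27.4 ± 3.89), Tnfaip3 (24.6 ± 4.27), Nfkbiz (19.7 ± 1.51), Nfkbia (18.7 ± 6.52) and Nfkbie (9.78 ± 1.44). Neighbours in each order overlapped between libraries except for the last pair, where every Nfkbia library stood above every Nfkbie library in both genotypes. The genes kept the same places in both orders apart from Rel, which took place 1 in KO and place 4 in WT, and the 3 genes that it passed. These places rest on 1 window per gene, and other windows within 1 kb of a TSS can stand higher. The Rel window at 678 bp averaged 62.1 CPM in KO and 51.7 in WT, above every ordered window of the same genotype. For Nfkbiz the window at 469 bp averaged 35.6 CPM in KO and 33.9 in WT. In each genotype 9 of the 10 ordered windows, all but that of Nfkbie, ranked in the top 10% of all windows.

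A TSS stood within 1 kb of 26 of the 119 windows, 93 were more distal, and 52 were annotated as intergenic and 43 as intronic. Both genotypes' site lists held 93 of them (78.2%), the KO list alone 8 (6.72%) and the WT list alone 18 (15.1%), while over all windows these shares were 75.5%, 8.18% and 16.3%. Some 33 windows overlapped the one before and share tags with it. The low-count filter kept 77 windows, among them all 26 near a TSS, and left out 42 distal ones. Over the 77 kept, 37 had positive and 40 negative log2 fold changes, with a median of −0.03, a lowest of −1.23 and a highest of 1.33. In the edgeR fit 0 were called, against 24 of 40370 windows overall (0.0595%). At an unadjusted p under 0.05, 2 were higher in KO, against 2.19% of all windows, and 0 were lower, against 2.5%. DESeq2 also called 0 and had 2 at an unadjusted p under 0.05. The KO libraries lay above all WT libraries in 5 of the 77 windows, against 5.19% of all windows, and below in 0, against 4.91%.

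**Figure D3:**
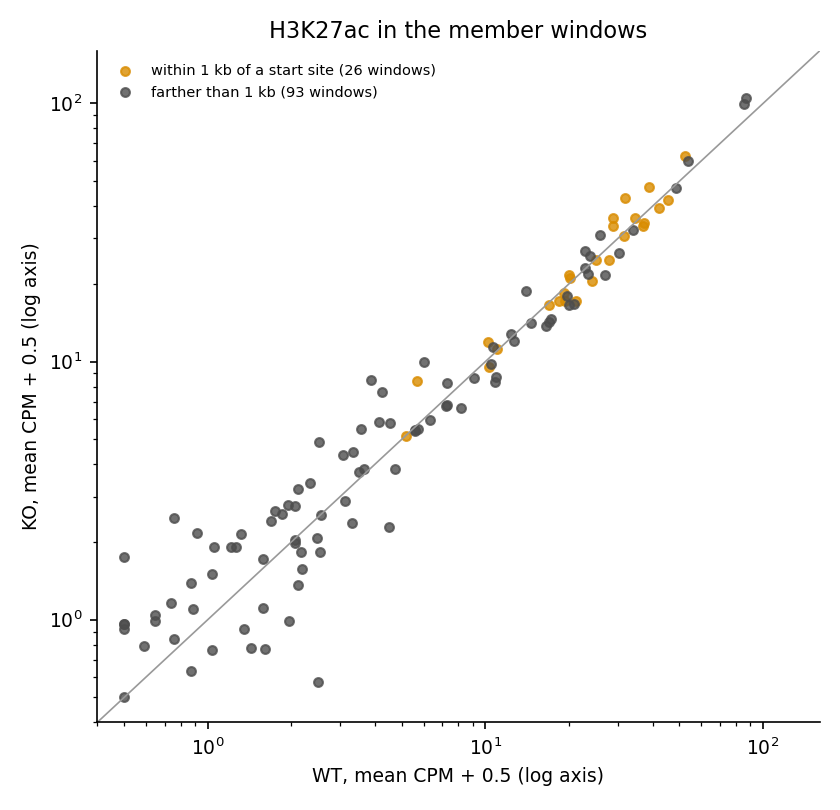
Mean H3K27ac CPM plus 0.5 in KO (vertical, log axis) and WT (horizontal, log axis) for the 119 windows, with windows within 1 kb of a TSS in orange, farther ones in grey, and a line of equal values. The 26 promoter windows stand close to the line, and the scatter widens among distal windows with few tags.

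Against input, the members stood high. Fitted over all 12 libraries with total tags as library size, 10 of the 10 genes were called higher in H3K27ac in KO and 10 in WT, where 87.9% of 12468 genes were in KO and 85.6% in WT. The excess ran between 9.39-fold (Nfkbia) and 37.0-fold (Nfkbid) in KO, and between 8.46-fold (Nfkbie) and 33.9-fold (Nfkbid) in WT. These are ratios of sums over different numbers of windows, weak ones among them, and do not rank the genes. Among single windows, 73 of 77 were called in KO, where 91.7% of all windows were, and 68 in WT, where 88.7% were. All 26 promoter windows were called in both genotypes, and of the 51 tested distal windows 47 were called in KO and 42 in WT. The shares called over all promoter windows and over all distal windows are not given, so this split is a description only. The median excess in promoter windows was 20.4-fold in KO and 16.6-fold in WT (CPM plus 0.5), where it was 5.99-fold and 5.45-fold over all promoter windows. In distal windows it was 2.63-fold in KO and 2.31-fold in WT, near the 2.55-fold and 2.36-fold over all distal windows.

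The input libraries allowed the genotypes to be compared as a difference of H3K27ac over input, KO minus WT. In that fit the median over all genes was 0.19 on the log2 scale, so values are given relative to it. In the edgeR fit 0 of 12468 genes were called (0%), and 604 (4.84%) were positive at an unadjusted p under 0.05. Of the members, 3 were so. Nfkbie stood 0.76 above the median of all genes with an unadjusted edgeR p of 0.025, Rel 0.36 above it with one of 0.028, and Tnfaip3 0.33 above it with one of 0.027. The adjusted p was 0.810 for each. Relative to the median of all genes, the 95% intervals of all 3 included 0, since these p-values test against 0 and not against that median. Input moved with them: Nfkbie input averaged 3.54 ± 1.45 CPM in KO and 7.73 ± 1.16 in WT, Rel input 12.4 ± 2.47 in KO and 15.8 ± 3.39 in WT, and Tnfaip3 input 18.3 ± 3.83 in KO and 24.1 ± 5.46 in WT. H3K27ac of Nfkbie itself averaged 61.95 ± 24.2 CPM in KO and 66.25 ± 11.1 in WT (log2 KO over WT −0.13), so its mark was not higher in KO. For Rel and Tnfaip3 the log2 KO over WT was 0.20 and 0.16, uncalled. The part of input in these differences was not tested.

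**Figure D4:**
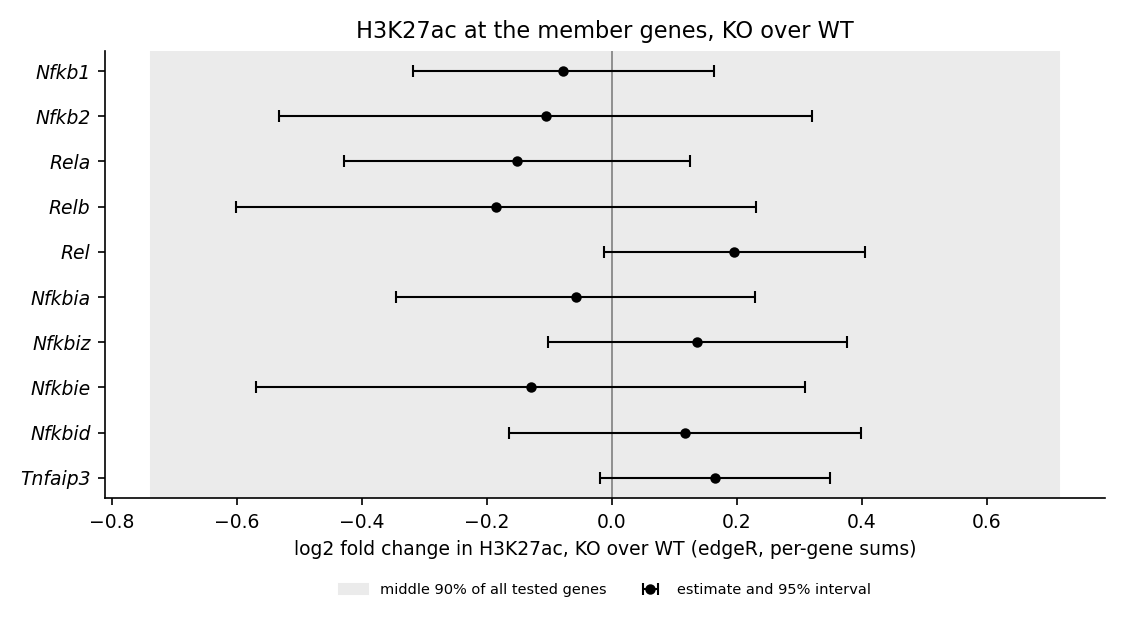
Log2 fold change in H3K27ac, KO over WT, for the summed windows of each gene (points) with 95% intervals from edgeR, and in grey the range that holds the middle 90% of all tested genes, −0.74 to 0.72. All 10 intervals include 0.

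The genes around these members in the pathway were compared the same way, as lists chosen with earlier results of these data known. In none of the 5 lists was a gene called by edgeR or by DESeq2. Among kinases of the IKK complex and upstream of it, 6 of 12 tested genes were positive (median −0.05), with 1 at an unadjusted p under 0.05 by each tool. Tab2, an adaptor subunit of the TAK1 kinase complex, held 360, 374 and 277 tags in KO and 313, 427 and 430 in WT (log2 −0.43, adjusted p = 0.640), while Map3k7, which encodes TAK1 itself, held 204, 212 and 172 in KO and 124, 157 and 84 in WT (log2 0.46, adjusted p = 0.897).

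Of the adaptors and ubiquitin ligases 11 of 26 were positive (median −0.04), and 0 had an unadjusted p under 0.05. The smallest p-values there belonged to Ripk1, a kinase of the TNF receptor complex (log2 0.51, adjusted p = 0.908), and Ticam2, an adaptor of TLR4 (log2 −0.49, adjusted p = 0.931). Receptors that activate the pathway had 9 of 19 positive (median −0.05), with 0 at an unadjusted p under 0.05 by edgeR and 1 by DESeq2. Il18r1, a subunit of the IL-18 receptor, had 128, 138 and 97 tags in KO and 62, 83 and 63 in WT (log2 0.58, adjusted p = 0.873). Tnfrsf1b, the second TNF receptor, had 1069, 1008 and 731 in KO and 832, 833 and 1146 in WT (log2 −0.22, adjusted p = 0.901).

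Other inhibitors of the pathway had 13 of 21 positive (median 0.12), and 3 had an unadjusted p under 0.05 by each tool. Their estimates pointed in both directions: Pdlim2, which promotes the removal of nuclear p65, had 96, 104 and 131 tags in KO and 32, 81 and 49 in WT (log2 0.84, SE 0.34, adjusted p = 0.738), and Nkiras2, which encodes a Ras-like protein that binds IkB, had 53, 106 and 79 in KO and 161, 96 and 103 in WT (log2 −0.84, SE 0.31, adjusted p = 0.627). Of the target genes 18 of 33 were positive (median 0.04), and 1 had an unadjusted p under 0.05 by each tool. In edgeR this was the cytokine gene Il6, with 267, 378 and 233 tags in KO and 284, 375 and 340 in WT (log2 −0.41, SE 0.17, adjusted p = 0.780). Sod2, which encodes a mitochondrial superoxide dismutase, had 31, 60 and 67 tags in KO and 15, 30 and 29 in WT (log2 0.90, SE 0.44, adjusted p = 0.873).

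**Figure D5:**
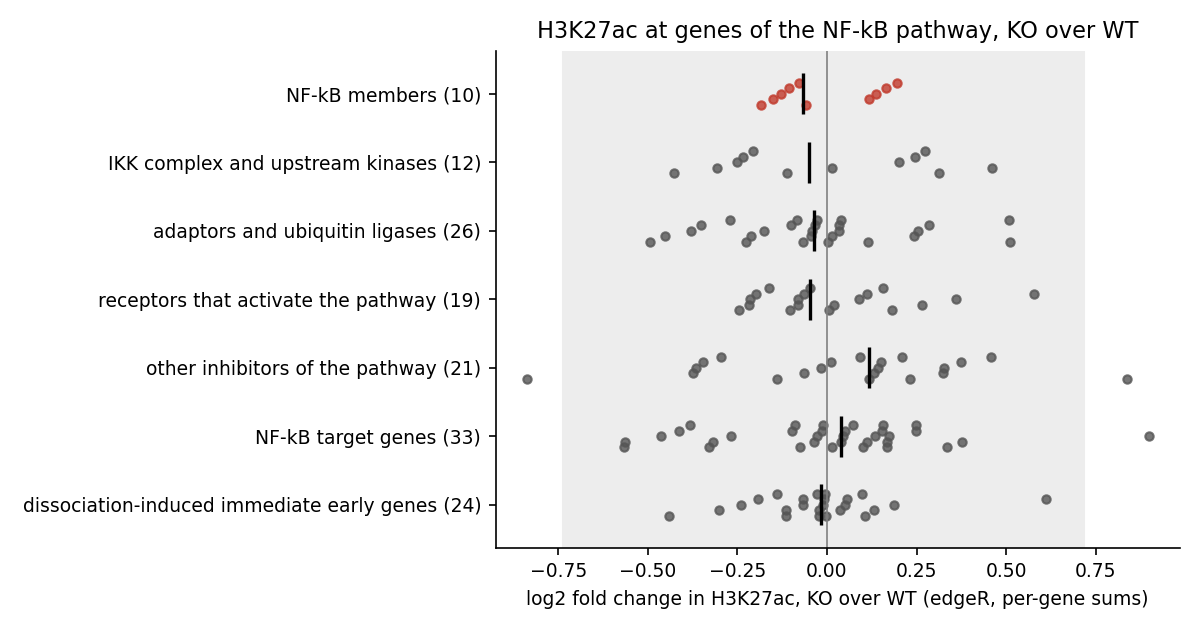
Log2 fold change in H3K27ac, KO over WT, for each tested gene of the members (red) and of 6 other lists (grey), with the number of genes in brackets, a black bar at the median and a grey range for the middle 90% of all tested genes. The members lie between −0.19 and 0.20, and the medians of all 7 lists between −0.07 and 0.12.

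The average of the 10 members on the log2 scale, after TMM scaling, was 8.22, 8.32 and 8.16 in the KO libraries and 8.27, 8.23 and 8.25 in the WT libraries. KO replicate 2 was the highest and KO replicate 3 the lowest library. The genes whose levels followed this average most closely over the 6 libraries were Cep250 (Pearson r = 0.977), Zmiz2 (0.974) and Slc9a3r1 (0.972), out of 6064 genes of at least median abundance. With 6 points that share their libraries, these values are a description only.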

How the data were processed

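H3K27ac and input tags were counted in 12 libraries. Per the file headers, the authors counted tags with HOMER on mm10, unadjusted, in windows of 1000 bp around merged accessible sites, and these raw counts were used as deposited, with no UMIs described, so tag numbers carry counting and amplification error. HOMER and DESeq2 are named in the submitters' processing notes. The sources used here do not give the aligner or the handling of duplicates. The second table of scaled values was not used. Windows were joined to the nearest TSS as the table gives it and summed per gene within 100 kb. KO and WT were compared with edgeR 4.0.16 in R 4.3.3 (filterByExpr, TMM, quasi-likelihood F-test, Benjamini-Hochberg over all windows or genes). Standard errors come from dividing each log2 fold change by the square root of its F. H3K27ac over input was fitted over 4 groups with total tags as library size. Printed levels are tags per 1000000 total tags (CPM). DESeq2 1.42.0, other scalings, filters and distances, and leaving out each library were alternatives. The scripts were tested on simulated counts. The members, lists and tests were chosen with earlier results of these data known. Named were all members, their window nearest the TSS and their strongest window, member windows with an unadjusted p under 0.05, the 2 genes of smallest p per pathway list, and the 3 genes most like the members' average. Other windows and genes in the text were chosen after their values were seen.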

Additional observations from a re-analysis of the deposited data

Results flagged for a closer look

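Nfkbiz had 4 windows beyond 100 kb of its TSS that no comparison above used, and 2 of them carried H3K27ac above input in both genotypes. At 158041 bp downstream, log2 H3K27ac over input was 3.89 in KO and 4.23 in WT, with 67, 66 and 37 tags in KO and 64, 39 and 83 in WT. At 123344 bp it was 3.01 in KO and 1.98 in WT, with 45, 55 and 39 tags in KO and 35, 25 and 7 in WT. The difference between genotypes was not tested as a result of its own, and the windows may belong to another gene.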

How the results depend on the processing

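In 15 alternatives of the fit on summed windows, and in each alternative of the fit on single windows, 0 members were called. Rel, Nfkbiz and Tnfaip3 stayed positive and Rela and Relb negative in all 15. Nfkbid was positive except in the difference of H3K27ac over input, where it stood at −0.058 relative to the median of all genes. Over the whole table the calls moved more. Called windows numbered 68 with DESeq2 and 68 with no filter, and 10 to 29 when 1 library was left out. Called genes numbered 16 with total tags as library size, 48 with no filter, 15 with the replicate block, 1 within 1 kb of the TSS, 0 in the difference of H3K27ac over input, and 8 to 18 when 1 library was left out. Nothing in the labels ties libraries of the same number together. Deviations of same-numbered libraries correlated with r between −0.00078 and 0.0155. Between genotypes, KO replicate 1 correlated best with WT replicate 3. In WT each H3K27ac library correlated best with the input of its own number (r = 0.0155, 0.0076 and 0.00996). In KO this held for replicates 1 and 3, while replicate 2 correlated best with input replicate 1 (r = 0.0087). WT replicate 1 also lacked Y-linked tags in both H3K27ac and input. The main fits of H3K27ac over input, and of its difference between genotypes, did not pair libraries. The replicate block of KO with WT left 0 members called.

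Some uncalled log2 fold changes turned sign. In the difference of H3K27ac over input, Nfkb1 was at 0.17, Nfkb2 at 0.16, Nfkbia at 0.11 and Nfkbie at 0.94 before the median of all genes, 0.19, is taken off. Relative to that median Nfkb1 was at −0.018, Nfkb2 at −0.029 and Nfkbia at −0.077, so these 3 kept their negative sign. Nfkbie turned positive, at 0.76, and Nfkbid turned negative, at −0.058. When 1 library was left out, the summed value ran between −0.20 and 0.051 for Nfkbia and between −0.30 and 0.11 for Nfkbie. Of single windows, that of Nfkb1 at 82 bp ran between −0.20 and 0.15, that of Nfkb2 at −117 bp between −0.33 and 0.012, those of Nfkbia at −71 and 3378 bp between −0.24 and 0.22 and between −0.095 and 0.15, those of Nfkbiz at −32 and 469 bp between −0.011 and 0.11 and between −0.019 and 0.18, those of Nfkbie at −100 and 1194 bp between −0.50 and 0.055 and between −0.38 and 0.055, and that of Tnfaip3 at −5 bp between −0.24 and 0.15. The Tnfaip3 window was at −0.0019 with DESeq2, −0.025 with total tags as library size, −0.0015 with no filter and −0.017 with the replicate block. The cause of these turns was not tested.

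H3K27ac over input depended on the scaling. With TMM, which sets the average kept window to no change, 30 of the 77 tested member windows were called in KO and 27 in WT. Of the 10 genes 9 were called in each genotype, without Nfkbia in KO (log2 0.36, edgeR adjusted p = 0.069) and Nfkbie in WT (log2 0.38, edgeR adjusted p = 0.239). The shares called over all windows and genes with TMM are not given, so these counts cannot be set against them. The 42 untested member windows held at most 25 tags in any library, and with no filter 118 of the 119 member windows were tested and 0 were called.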
